A study of Mus musculus with 39 samples.

Results

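The genes described here are the arrestin-domain genes Arrdc1, Arrdc2, Arrdc3, Arrdc4 and Txnip and the arrestins Arrb1 and Arrb2, measured in 3 tissues of B6C3F1 mice, the liver, bone marrow and spleen, 2 hours into reduced oxygen. They were chosen by gene family, and the family was picked because Arrdc3 differed between reduced oxygen and control arrays in opposite directions in liver and in the other tissues. The family comprised 7 of the 18193 genes that the array annotation named by a single symbol, and 12 probe sets, 3 for Arrdc1, 2 each for Arrdc4, Txnip and Arrb2, and 1 each for Arrdc2, Arrdc3 and Arrb1. A probe set is a group of short probes against 1 transcript. All 7 genes lay above the 30th percentile of gene means in every tissue, the limit below which genes were left out of the tests as dim.

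B6C3F1 mice are hybrids bred from the C57BL/6 and C3H strains. Liver and spleen each had 8 vehicle and 8 hypoxia arrays, and bone marrow had 3 vehicle and 4 hypoxia arrays, 39 in all, each from total RNA of whole tissue. The controls are titled vehicle without a named substance, and the treated group is given only as hypoxia, without an oxygen level. Mice of every group were anesthetized with ketamine and acepromazine before they were killed and the tissues taken, and marrow RNA was isolated with another kit than liver and spleen RNA. The sources used here do not give sex or age, and do not say whether arrays of a group came from separate mice or whether the tissues came from the same mice, so p-values measure the spread between these arrays, which may be technical.

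Arrestins are adaptor proteins that share a fold and bind membrane proteins from the cytoplasmic side. The beta-arrestins Arrb1 and Arrb2 bind activated, phosphorylated G protein-coupled receptors, end their coupling to G proteins and act as scaffolds for endocytosis and kinase signalling. The alpha-arrestins, to which the Arrdc proteins and Txnip belong, carry PPxY motifs with which they recruit ubiquitin ligases of the NEDD4 family to receptors and transporters. Txnip also binds and inhibits thioredoxin and limits glucose uptake, and its transcription follows glucose through the factors MondoA and ChREBP, in liver and elsewhere.

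RefSeq's promoter table for assembly GRCm38.p6 held 5 of the 7 genes by symbol, with a window from 250 bases before to 50 bases after the transcription start. The windows of Txnip, Arrdc4, Arrdc3 and Arrdc2 are shown because the results turn on these genes. Both strands were searched for the E-box CACGTG, a pair of such E-boxes 5 bases apart, the hypoxia response element core ACGTG, the forkhead motif TGTTTAC, the glucocorticoid receptor core site TGTTCT and a looser pair of boxes CACGNG with 5 bases between them, as in a carbohydrate response element. The looser pair was added after the Txnip window had been read. Capitals mark the matches, and each window is printed 5' to 3' on the strand of its gene. Txnip lies at chr3:96557707-96558006 on the plus strand, Arrdc4 at chr7:68749189-68749488 on the minus strand, Arrdc3 at chr13:80883134-80883433 on the plus strand and Arrdc2 at chr8:70839671-70839970 on the minus strand.
Txnip: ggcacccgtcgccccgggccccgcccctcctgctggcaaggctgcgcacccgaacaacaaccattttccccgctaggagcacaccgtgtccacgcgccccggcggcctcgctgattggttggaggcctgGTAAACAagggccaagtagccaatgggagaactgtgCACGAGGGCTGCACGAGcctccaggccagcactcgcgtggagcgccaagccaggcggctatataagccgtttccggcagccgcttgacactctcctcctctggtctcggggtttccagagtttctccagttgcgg
Arrdc4: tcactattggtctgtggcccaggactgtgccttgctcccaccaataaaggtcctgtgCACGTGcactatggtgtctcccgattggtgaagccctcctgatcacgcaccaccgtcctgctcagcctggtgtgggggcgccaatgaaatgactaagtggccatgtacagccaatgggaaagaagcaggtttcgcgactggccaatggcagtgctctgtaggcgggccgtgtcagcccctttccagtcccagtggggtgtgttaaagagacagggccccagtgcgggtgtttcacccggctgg
Arrdc3: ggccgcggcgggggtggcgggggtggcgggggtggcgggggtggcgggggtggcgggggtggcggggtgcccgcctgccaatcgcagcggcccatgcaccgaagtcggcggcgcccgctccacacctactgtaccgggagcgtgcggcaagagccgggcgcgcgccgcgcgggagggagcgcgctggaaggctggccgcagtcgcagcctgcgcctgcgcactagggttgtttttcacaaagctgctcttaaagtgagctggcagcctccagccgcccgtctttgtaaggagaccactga
Arrdc2: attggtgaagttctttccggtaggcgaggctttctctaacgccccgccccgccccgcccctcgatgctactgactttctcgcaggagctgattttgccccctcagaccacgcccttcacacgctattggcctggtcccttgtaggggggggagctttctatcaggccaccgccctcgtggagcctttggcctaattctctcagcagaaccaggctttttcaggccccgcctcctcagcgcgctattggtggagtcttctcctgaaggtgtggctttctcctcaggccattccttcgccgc

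The Txnip window held 1 forkhead motif, on the opposite strand, whose first base lay at -121 from the start, and the looser pair of boxes, which began at -85. The looser pair was found in 16 of 32851 promoter windows of this table, or 0.0487%, and the forkhead motif in 3.65%. The Arrdc4 window held 1 E-box, which began at -193 and also contains the hypoxia core ACGTG on both strands. An E-box was present in 7.15% of windows and the hypoxia core in 19.6%. The windows shown for Arrdc3 and Arrdc2 held none of the motifs, nor did the Arrdc1 window. Another of the 3 Arrdc3 entries, at chr13:80885845-80886144, had 1 ACGTG, at -205. The glucocorticoid receptor core site, present in 19.0% of windows, was in none of the 7 entries, and the strict E-box pair was in 0 of 32851 windows. A match describes letters in a window and is not evidence of binding.

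The difference between hypoxia and vehicle arrays was the measure on which the family was picked, so for the 7 genes it is described without a test. Values are log2 intensities, differences are hypoxia minus vehicle means of log2 intensity with the standard error (SE) of the fit in that tissue, and groups are said not to overlap where every array of one lay beyond every array of the other. By the probe set of highest mean in the tissue, groups did not overlap in liver for 2 of the 7 genes, Arrdc2, higher, and Arrdc3, lower, where 2.84% of the 12735 genes tested did not overlap (1.02% higher and 1.82% lower). In bone marrow 4 did not overlap, Arrdc3, Txnip and Arrb2, higher, and Arrdc4, lower, against 20.5% of all genes (7.77% higher and 12.7% lower). In spleen 2 did not overlap, Arrdc3 and Txnip, both higher, against 4.69% (1.19% higher and 3.49% lower). With limma and a Benjamini-Hochberg adjusted p under 0.05 over all genes, 3 of the 7 were called in liver, where 11.1% of genes were. That share is 1413 liver genes, and 2385 were called with the replicate number as a block. In bone marrow 4 were called against 7.69%, and in spleen 3 against 19.4%. Because the family was picked on this contrast, nothing is read from these counts.

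**Figure D1:**
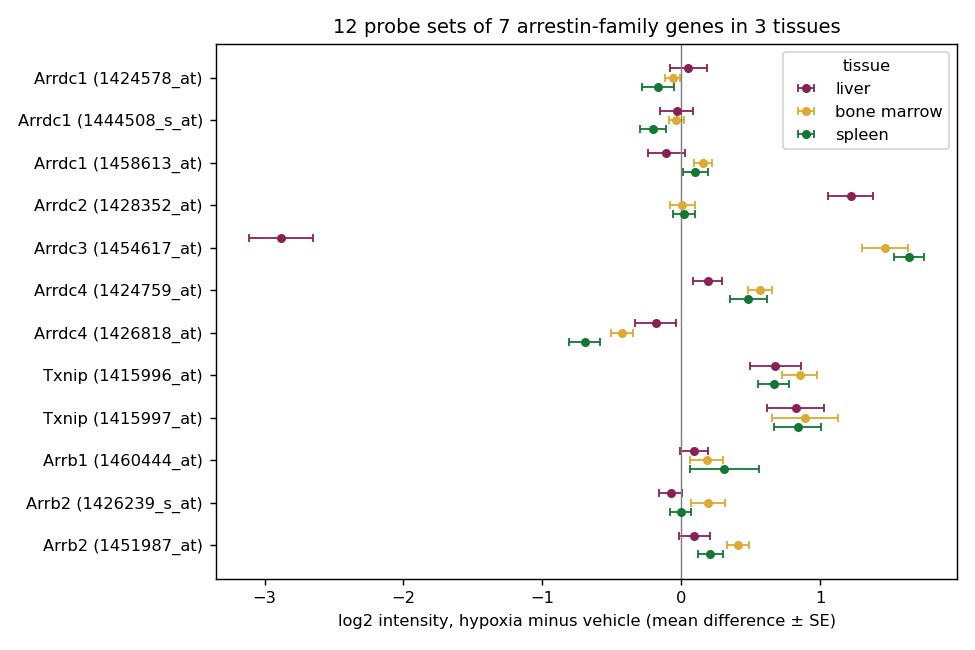
Differences of the 12 probe sets of the 7 genes in liver, bone marrow and spleen. Points are hypoxia minus vehicle means of log2 intensity and bars are ± 1 SE. Arrdc3 stands at -2.88 in liver and at 1.47 and 1.64 in marrow and spleen, and the probe sets of Arrdc4 lie on opposite sides of 0 in each tissue.

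Arrdc3, an alpha-arrestin that brings NEDD4-family ligases to receptors such as the beta2-adrenergic receptor and that has been linked to insulin action in liver, differed most among the 7 genes in all 3 tissues. In liver the vehicle arrays ran from 10.01 through a median of 10.85 to 11.23, and the hypoxia arrays from 7.12 through 7.74 to 8.91. All 8 hypoxia arrays lay below all 8 vehicle arrays. The difference was -2.88 ± 0.23 (SE, n = 8 and 8), a level 7.37-fold lower. In whole tissue, fewer cells of a type and less RNA per cell cannot be told apart. Hepatocyte markers (6 of 6 measured) had a log2 summed level of 17.31 to 17.36 in the vehicle livers and 17.27 to 17.36 in the hypoxia livers, so these ranges overlapped.

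In bone marrow the 3 vehicle arrays stood at 8.90, 9.34 and 9.53 for Arrdc3. The 4 hypoxia arrays stood at 10.40, 10.81, 10.79 and 10.91, all above the vehicle arrays. The marrow difference was 1.47 ± 0.17 (SE, n = 3 and 4), or 2.76-fold. In spleen the vehicle arrays ran from 8.57 through 8.79 to 9.33 and the hypoxia arrays from 10.26 through 10.52 to 10.73. The spleen groups did not overlap either, and differed by 1.64 ± 0.11 (SE, n = 8 and 8), or 3.12-fold. Leaving out any 1 array kept the difference between -3.03 and -2.77 in liver, 1.29 and 1.60 in marrow and 1.60 and 1.70 in spleen.

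**Figure D2:**
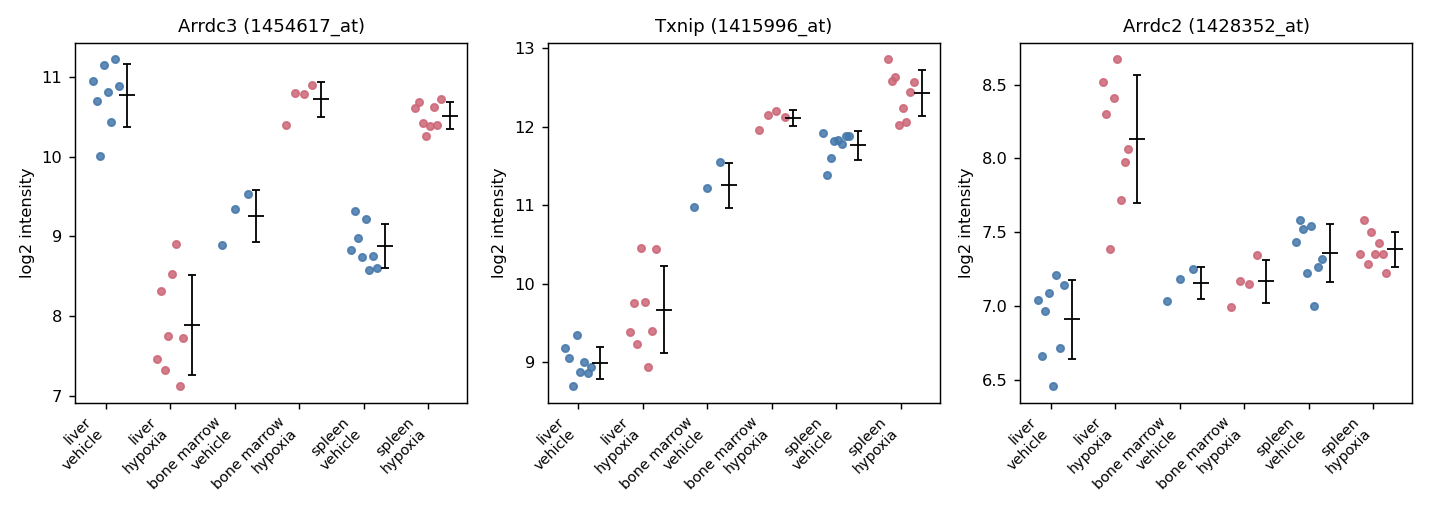
Log2 intensity of Arrdc3, Txnip and Arrdc2 in every array, by tissue and treatment. Each point is an array, blue for vehicle and red for hypoxia, and the bar beside each group is its mean ± SD. Arrdc3 is lower in the hypoxia livers and higher in the hypoxia marrow and spleen arrays, Txnip is higher in all tissues, and Arrdc2 differs in liver.

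The tissues were treated as normalized separately, so the order of levels across tissues is a description. For Arrdc3 the vehicle livers had the highest mean, 10.77 ± 0.40 (SD, n = 8), followed by the hypoxia marrow arrays at 10.73 ± 0.22 (SD, n = 4) and the hypoxia spleens at 10.52 ± 0.17 (SD, n = 8). Neighbours among these overlapped. The vehicle marrow arrays at 9.26 ± 0.33 (SD, n = 3) lay below all of the hypoxia spleens. The vehicle spleens at 8.88 ± 0.28 and the hypoxia livers at 7.89 ± 0.63 (SD, n = 8 each) came last, and neighbours overlapped again. Liver was thus the tissue with the highest Arrdc3 mean under vehicle and the lowest under hypoxia.

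Arrdc2, another alpha-arrestin of the same family, was higher in the hypoxia livers. The vehicle livers ran from 6.46 through a median of 7.00 to 7.21 and the hypoxia livers from 7.38 through 8.18 to 8.67. The liver groups did not overlap, and the difference was 1.22 ± 0.16 (SE, n = 8 and 8), or 2.33-fold. In liver Arrdc2 was thus higher and Arrdc3 lower in the same arrays. In bone marrow the vehicle arrays stood at 7.04, 7.18 and 7.25 and the hypoxia arrays at 6.99, 7.17, 7.15 and 7.35. These marrow groups overlapped and differed by 0.01 ± 0.09 (SE). In spleen the difference was 0.02 ± 0.08 (SE), with vehicle arrays from 7.00 through 7.37 to 7.58 and hypoxia arrays from 7.22 through 7.35 to 7.58. The hypoxia livers had the highest mean of Arrdc2 among the 6 groups, and neighbours in the order of means overlapped throughout.

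Txnip, the alpha-arrestin that binds thioredoxin and limits glucose uptake, was higher under hypoxia in all 3 tissues by both of its probe sets. By probe set 1415996_at the vehicle livers ran from 8.70 through a median of 8.97 to 9.35 and the hypoxia livers from 8.94 through 9.58 to 10.46. The ranges overlapped, with 6 of 8 hypoxia arrays above all vehicle arrays, and the difference was 0.68 ± 0.18 (SE, n = 8 and 8). The vehicle marrow arrays stood at 10.98, 11.22 and 11.56. The hypoxia marrow arrays stood at 11.96, 12.15, 12.20 and 12.12, without overlap, and the difference was 0.85 ± 0.13 (SE, n = 3 and 4). The vehicle spleens ran from 11.38 through 11.83 to 11.92 and the hypoxia spleens from 12.03 through 12.50 to 12.86. The spleen groups did not overlap and differed by 0.67 ± 0.11 (SE, n = 8 and 8).

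The other Txnip probe set, 1415997_at, gave differences of 0.82 ± 0.21 in liver, 0.89 ± 0.24 in marrow and 0.84 ± 0.17 in spleen (SE). Its groups overlapped in each tissue, with 6 of 8, 3 of 4 and 6 of 8 hypoxia arrays above all vehicle arrays. In the order of means by 1415996_at, the hypoxia livers, at 9.67 ± 0.55 (SD, n = 8), and the vehicle livers came last, below all marrow and spleen arrays. Marrow and spleen means ran from 11.25 to 12.43.

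Arrdc4, the close relative of Txnip and like it a target of MondoA and a brake on glucose uptake, gave opposite directions by its 2 probe sets. By 1424759_at the vehicle marrow arrays stood at 6.98, 6.71 and 6.81 and the hypoxia marrow arrays at 7.38, 7.57, 7.28 and 7.39. These hypoxia arrays all lay above the vehicle arrays, by 0.57 ± 0.09 (SE). By 1426818_at the same vehicle arrays stood at 8.71, 8.55 and 8.57 and the same hypoxia arrays at 8.09, 8.27, 8.10 and 8.30. By this probe set they all lay below the vehicle arrays, by -0.42 ± 0.08 (SE).

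The spleen repeated this split for Arrdc4. By 1424759_at the vehicle spleens ran from 6.02 through 6.23 to 6.38 and the hypoxia spleens from 6.33 through 6.57 to 7.45, a difference of 0.48 ± 0.13 (SE) with 6 of 8 hypoxia arrays above all vehicle arrays. By 1426818_at the vehicle spleens ran from 7.06 through 7.30 to 7.40 and the hypoxia spleens from 6.12 through 6.61 to 7.14, a difference of -0.70 ± 0.11 (SE) with 7 of 8 below all vehicle arrays. In liver the differences were 0.19 ± 0.11 and -0.18 ± 0.15 (SE), and both probe sets overlapped between the groups, from 5.15 to 6.12 by 1424759_at and from 4.92 to 6.13 by 1426818_at. The brighter probe set was 1424759_at in liver and 1426818_at in marrow and spleen, so no direction is given for Arrdc4 as a gene. The transcripts that each probe set reads are not given in the sources used here, and what sets the probe sets apart was not tested.

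**Figure D3:**
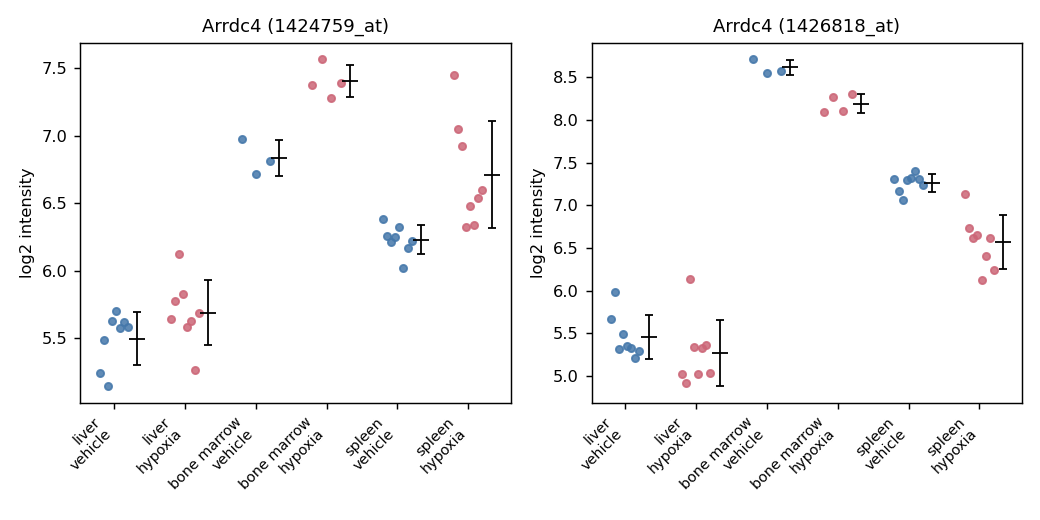
Log2 intensity of the 2 Arrdc4 probe sets in every array, by tissue and treatment. Each point is an array, blue for vehicle and red for hypoxia, and the bar beside each group is its mean ± SD. In bone marrow the hypoxia arrays lie above the vehicle arrays by 1424759_at and below them by 1426818_at.

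Arrdc1, an alpha-arrestin that recruits the ESCRT protein Tsg101 to the plasma membrane to form extracellular vesicles, had differences between -0.20 and 0.16 in the 3 tissues by its 3 probe sets. By the brightest, 1424578_at, the vehicle livers ran from 7.40 through 7.76 to 8.14 and the hypoxia livers from 7.34 through 7.89 to 8.15, and differed by 0.05 ± 0.13 (SE). The marrow difference was -0.06 ± 0.06 and the spleen difference -0.17 ± 0.12 (SE), with overlapping groups. The largest spleen difference was -0.20 ± 0.10 (SE), by 1444508_s_at. By 1458613_at the marrow groups did not overlap, at 7.69 to 7.73 under vehicle and 7.80 to 7.99 under hypoxia, a difference of 0.16 ± 0.06 (SE). The liver means of log2 intensity of all 3 probe sets lay below those of bone marrow and spleen, without overlap between liver and the group above it. Array medians were also lower in liver, so this order holds for intensities only. By mean percentile within the array, 1458613_at stood higher in liver, at 72.4 under vehicle and 71.2 under hypoxia. In the same order it stood at 68.6 and 70.5 in marrow and 67.7 and 69.1 in spleen.

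Arrb2, a beta-arrestin abundant in blood cells, was higher in the hypoxia marrow arrays by 1451987_at, the brighter probe set over all marrow arrays. Under vehicle alone 1451987_at was the dimmer there, at a mean of 11.33 against 11.42 by 1426239_s_at. Under hypoxia it stood at 11.74 against 11.62, so the marrow counts hold Arrb2 by a probe set chosen through the hypoxia arrays. By 1451987_at the vehicle marrow arrays stood at 11.43, 11.16 and 11.40 and the hypoxia arrays at 11.68, 11.77, 11.67 and 11.84. These groups did not overlap and differed by 0.41 ± 0.08 (SE). The spleen groups, from 9.89 through 10.18 to 10.43 and from 10.14 through 10.38 to 10.62, overlapped and differed by 0.21 ± 0.09 (SE). The liver groups differed by 0.10 ± 0.11 (SE). By 1426239_s_at, whose suffix marks probes that may match several transcripts, the marrow difference was 0.20 ± 0.12 with overlap, and the liver and spleen differences were -0.08 ± 0.08 and -0.0042 ± 0.08 (SE).

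Arrb1, the other beta-arrestin, had overlapping groups in every tissue. The differences were 0.09 ± 0.10 in liver, 0.18 ± 0.12 in marrow and 0.31 ± 0.25 in spleen (SE). The marrow difference was 0.07 without vehicle replicate 1. The spleen difference was 0.16 without hypoxia replicate 4, 0.48 without vehicle replicate 2, 0.02 within replicates 1 to 4 and 0.61 within replicates 5 to 8. The marrow arrays stood at 10.24 to 10.64 under vehicle and 10.48 to 10.86 under hypoxia. The spleens spread most, from 9.20 through 9.99 to 11.21 under vehicle and from 9.95 through 10.17 to 11.34 under hypoxia. The livers, from 5.70 to 6.45 over both groups, lay below all marrow and spleen arrays.

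Cell type markers followed the tissue labels in the vehicle arrays, with a median log2 intensity of 14.7 for 6 hepatocyte markers in liver, 14.7 for 6 neutrophil markers in marrow and 12.5 for 4 B cell markers in spleen. In spleen the median of 3 of 6 erythroid markers was 12.42 under vehicle, with arrays from 11.02 to 13.95, and 13.07 under hypoxia, with arrays from 12.40 to 13.82. The log2 summed level of the erythroid markers ran from 13.03 to 15.05 in vehicle spleens and from 13.80 to 14.90 in hypoxia spleens. For the 6 neutrophil markers it ran from 12.70 to 14.40 and from 12.22 to 15.50, and for 4 of 5 B cell markers from 13.94 to 14.66 and from 12.71 to 14.42. In bone marrow the erythroid sums ran from 14.52 to 14.82 under vehicle and 14.65 to 14.90 under hypoxia. Macrophage markers (5 of 5) summed to 13.01 to 13.36 in the vehicle and 13.27 to 13.44 in the hypoxia marrow arrays, and adipocyte markers (3 of 5) to 10.71 to 11.60 and 11.50 to 11.91. In spleen the macrophage sums ran from 13.11 to 13.73 under vehicle and 13.42 to 14.01 under hypoxia, and the adipocyte sums from 6.73 to 11.62 and 7.12 to 9.75. In liver the neutrophil sums (6 of 6) ran from 7.28 to 7.73 under vehicle and 7.44 to 9.16 under hypoxia, the macrophage sums from 10.63 to 11.53 and 10.64 to 11.81, and the adipocyte sums from 7.43 to 8.23 and 8.11 to 8.99. The part of these markers in the differences of the 7 genes was not tested.

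How the genes varied between arrays of the same group was not used to pick the family, and was tested. In spleen the erythroid marker level was set against each of the 7 genes within each treatment, 14 relations with exact permutation tests over 8 arrays, a check added after the spread of Arrb1 had been seen. Arrb1 was higher in spleens with a higher erythroid level. Under vehicle Pearson's r was 0.971 (exact permutation p = 0.0001, adjusted over the 14 relations 0.00139) and Spearman's rho 0.976 (exact permutation p = 0.0004, adjusted 0.00556). Under hypoxia r was 0.880 (exact permutation p = 0.00067, adjusted 0.00469) and rho 0.905 (exact permutation p = 0.00456, adjusted 0.0319). Without the 2 spleens farthest from the median erythroid level r was 0.965 under vehicle (exact permutation p = 0.00556, adjusted 0.0486) and 0.843 under hypoxia (exact permutation p = 0.0472, adjusted 0.220), so the hypoxia relation no longer passed adjustment. With the means of replicates 1 to 4 and of 5 to 8 removed r was 0.949 and 0.912 (exact permutation within those sets, adjusted p = 0.0486 for both). In liver the erythroid level was 4.71 to 5.20 over both groups.

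**Figure D4:**
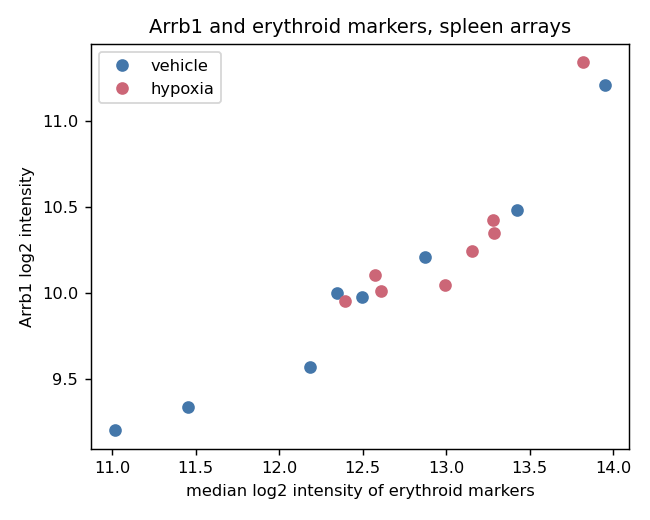
Arrb1 log2 intensity against the median log2 intensity of the erythroid markers in the 16 spleen arrays. Each point is an array, blue for vehicle and red for hypoxia. Arrays with a higher erythroid level have higher Arrb1 in both groups, with r of 0.971 and 0.880.

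Arrb2 and Txnip went the other way in the vehicle spleens, with r of -0.835 (exact permutation p = 0.0109, adjusted 0.0383) and -0.815 (exact permutation p = 0.00813, adjusted 0.0380). Their rank correlations did not pass adjustment (rho -0.762 and -0.690, adjusted exact permutation p = 0.103 and 0.139), and without the 2 farthest spleens r was -0.624 and -0.724 (exact permutation p = 0.193 and 0.115). With the means of the array sets removed r was -0.707 and -0.755 (exact permutation, adjusted p = 0.248 and 0.0810). Under hypoxia r was -0.080 for Arrb2 and -0.410 for Txnip (exact permutation p = 0.854 and 0.309), and that of Txnip was 0.542 without the 2 farthest spleens. Arrdc3 had r of 0.781 under vehicle and -0.652 under hypoxia (exact permutation, adjusted p = 0.0544 and 0.166). By Pearson's r over all 8 arrays, the relations of the other genes had adjusted exact permutation p values of 0.0544 or more. Without the 2 farthest spleens Arrdc2 under hypoxia had r of -0.881 (exact permutation p = 0.00694, adjusted 0.0486), against -0.156 over all 8.

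Arrdc3 was also set against each of the other 6 genes within each group of liver and spleen, 24 relations. None passed Benjamini-Hochberg adjustment of the exact permutation p. Arrdc3 and Arrdc2 in vehicle spleens came nearest, with r of 0.857 (exact permutation p = 0.00526, adjusted 0.0652) and rho of 0.929 (adjusted 0.0536), and Arrdc3 and Arrb1 there had r of 0.855 (exact permutation p = 0.00543, adjusted 0.0652). In liver, where Arrdc3 and Arrdc2 differed most between treatments, their r was -0.147 under vehicle and 0.183 under hypoxia (exact permutation p = 0.731 and 0.664). Arrdc3 and Txnip had r of 0.560 in vehicle livers and -0.660 in vehicle spleens (exact permutation p = 0.148 and 0.0601).

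In liver, replicates 1 to 4 and replicates 5 to 8 form separate sets by the 30th percentile of log2 intensity per array, 4.15 to 4.23 against 4.28 to 4.31, although the labels name no batch. These sets were compared as a check that the choice of genes did not use. Within vehicle livers Arrdc1 averaged 7.54 in replicates 1 to 4 and 7.99 in 5 to 8, a difference of 0.45 ± 0.10 (SE, limma adjusted p = 0.00487 over all genes). Arrb2 differed by 0.27 ± 0.10 (SE, limma adjusted p = 0.0432), and the adjusted p of the other 5 genes was 0.133 or more. Of all genes 27% differed between the sets in vehicle livers, 8.58% in the direction of Arrdc1 and Arrb2. In vehicle spleens none of the 7 genes passed (0.102% of all genes did, 0.0785% in the higher direction), with Arrb1 lower by -0.83 ± 0.31 in 5 to 8 (SE, limma adjusted p = 0.134).

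The hypoxia minus vehicle difference of Arrdc3 was -2.99 in liver replicates 1 to 4 and -2.77 in 5 to 8, and 1.53 and 1.75 in the spleen sets. For Arrdc2 the liver sets gave 1.22 and 1.23. For Txnip they gave 0.64 and 0.72 in liver and 0.85 and 0.49 in spleen. In the limma interaction of array set with treatment, 0 of the 7 genes passed adjustment in liver and 0 in spleen, where 0% and 0.196% of all genes did. At an unadjusted p under 0.05, 1 of the 7 passed in each tissue, as did 1272 genes in liver and 1759 in spleen. That gene was Arrdc4, by its brighter probe set in the tissue. In liver 1424759_at gave 0.47 in replicates 1 to 4 and -0.08 in 5 to 8 (interaction -0.55 ± 0.17, limma adjusted p = 0.352). In spleen 1426818_at gave -0.43 and -0.96 (interaction -0.54 ± 0.17, limma adjusted p = 0.160). These probe sets differed in direction between hypoxia and vehicle, so neither value repeats the other. The interaction was not fitted for the other probe set of each tissue. Arrb1 stood at 0.02 and 0.61 in the spleen sets (interaction 0.59 ± 0.44, limma adjusted p = 0.589).

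Genes linked to the arrestins by function were taken from 8 lists, of whose 103 genes 94 had a singly named probe set, and were tested with limma in each tissue over all genes. In liver 20 rose and 5 fell of 89 tested, in bone marrow 17 and 4 of 81, and in spleen 21 and 9 of 84. Of all genes 3.88% rose and 7.22% fell in liver, 2.76% and 4.92% in bone marrow, and 6.83% and 12.6% in spleen. With the replicate number as a block, 24 linked genes rose and 11 fell in liver, and all 25 called without it were among them. The lists had been drawn up with earlier results of these data known. The counts of each list follow, partners of the arrestins first and then regulators and their other targets.

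Of 7 other genes of the arrestin fold, among them the retromer subunits Vps26a and Vps26b and the retriever subunit Vps26c, none rose in any tissue. In liver 1 of 6 tested fell, in bone marrow 1 of 5 and in spleen 2 of 6. The gene in liver and bone marrow was Vps26c, at -0.27 ± 0.08 (SE, limma adjusted p = 0.0366) and -0.24 ± 0.06 (SE, limma adjusted p = 0.0483), and it also fell in spleen, at -0.26 ± 0.06 (SE, limma adjusted p = 0.00585). Its call was lost without 1 array for 11 of 16 arrays in liver (adjusted p up to 0.0793) and 6 of 7 in bone marrow (adjusted p up to 0.130), and in spleen within replicates 1 to 4 (adjusted p = 0.290). Vps26b fell in spleen by 0.18 on the log2 scale (limma adjusted p = 0.0493), a call lost for 12 of 16 arrays left out (adjusted p up to 0.101). With the replicate block 2 of the 6 fell in liver, Vps26c and, named after its value was seen, Rgp1 at -0.32 ± 0.09 (SE, limma adjusted p = 0.0251).

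The NEDD4-family ligases and their adaptors, the effectors that alpha-arrestins recruit, had 0 calls among 12 tested in liver and 0 of 12 in bone marrow. With the replicate block 1 liver gene fell, the ligase Wwp1, named after its value was seen, at -0.18 ± 0.05 (SE, limma adjusted p = 0.0320). In spleen 1 of 13 rose and 1 fell. The ligase Wwp2 rose by 0.35 ± 0.11 (SE, limma adjusted p = 0.0304) and Vps4a, the ATPase of the ESCRT machinery that acts in vesicle release, fell by 0.20 (limma adjusted p = 0.0326). Leaving out 1 array ended the call of Wwp2 for 8 of 16 arrays and that of Vps4a for 6 of 16 (adjusted p up to 0.0641 and 0.0666). The median change of the list was -0.08 in liver, 0.0014 in marrow and 0.03 in spleen, beside -0.03, -0.01 and -0.0083 over all genes.

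The list of the thioredoxin system held thioredoxins, which Txnip binds, with related enzymes and Nlrp3. Of its genes 0 of 10 tested were called in liver and in bone marrow. In spleen 2 of 10 rose, the thioredoxin reductases Txnrd3 by 0.21 ± 0.05 (SE, limma adjusted p = 0.0105) and Txnrd1 by 0.23 ± 0.07 (SE, limma adjusted p = 0.0363). The Txnrd1 call was lost for 9 of 16 arrays left out (adjusted p up to 0.0778), and the Txnrd3 call without probe sets that may match several transcripts and within either array set. The median change of the list in spleen was 0.20.

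Among adrenergic receptors, receptor kinases and their signalling partners, whose products prime receptors for beta-arrestins or limit cAMP, 0 of 8 tested genes were called in liver and in bone marrow. With the replicate block 3 of the 8 were called in liver, the phosphodiesterase Pde4d, higher, and, lower, the phosphodiesterase Pde4b and the receptor kinase Grk5, named after their values were seen (limma adjusted p = 0.0258, 0.0101 and 0.0284). In spleen 1 of 8 fell, the receptor kinase Grk3, by 0.33 ± 0.08 (SE, limma adjusted p = 0.00462). That call was lost with the mean of its probe sets, without probe sets that may match several transcripts and within replicates 1 to 4, with an adjusted p up to 0.712. Among glucose transporters and other cargoes of arrestins, 1 of 9 rose and 1 fell in liver, and 0 of 9 were called in bone marrow or spleen. Slc2a1, the glucose transporter GLUT1 whose surface level Txnip and Arrdc4 restrict, rose in liver by 0.99 ± 0.20 (SE, limma adjusted p = 0.00254). It stood at 0.27 ± 0.23 in marrow and 0.37 ± 0.13 in spleen (SE, limma adjusted p = 0.522 and 0.0587). Slc2a8, the intracellular transporter GLUT8, fell in liver by 0.24 (limma adjusted p = 0.0469), a call lost for 12 of 16 arrays left out (adjusted p up to 0.0933).

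The factors MondoA and ChREBP, which drive Txnip and Arrdc4, and other glucose-responsive genes had 4 higher and 1 lower of 16 tested in liver, 3 and 1 of 13 in marrow and 1 and 1 of 13 in spleen. Mlxip, which encodes MondoA, rose by 0.58 ± 0.08 in marrow and 0.61 ± 0.12 in spleen (SE, limma adjusted p = 0.00558 and 0.00213), and stood at 0.25 ± 0.10 in liver (SE, limma adjusted p = 0.105). Mlx, the obligate partner of MondoA and ChREBP, went the other way, at -0.57 ± 0.11 in marrow and -0.42 ± 0.06 in spleen (SE, limma adjusted p = 0.0175 and 0.000198). In liver Mlx was measured by another probe set and stood at 0.17 ± 0.12 (SE, limma adjusted p = 0.442). Its marrow call was lost without hypoxia replicate 2 (adjusted p = 0.0534), and the spleen call of Mlxip was lost within replicates 1 to 4 (adjusted p = 0.115).

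The 4 genes of the list that rose in liver were Thrsp, G6pc, Rgs16 and Klf10. Thrsp, a lipogenic regulator, rose by 1.54 ± 0.22 (SE, limma adjusted p = 6.98e-05). G6pc, the glucose-6-phosphatase that releases glucose, rose by 1.21 ± 0.13 (SE, limma adjusted p = 2.72e-06), and Rgs16 by 1.91 ± 0.44 (SE, limma adjusted p = 0.00752). The Rgs16 call was lost within replicates 1 to 4 (adjusted p = 0.0772). Klf10 rose in bone marrow by 0.37 ± 0.06 (SE, limma adjusted p = 0.00904) and in liver by 0.90 ± 0.27 (SE, limma adjusted p = 0.0361), and the liver call was lost for 10 of 16 arrays left out (adjusted p up to 0.0743). The gene that fell in liver was Mlxipl, which encodes ChREBP, at -0.42 ± 0.12 (SE, limma adjusted p = 0.0241). Its call was lost without hypoxia replicate 3 or hypoxia replicate 8 (adjusted p up to 0.0527) and within replicates 1 to 4 (adjusted p = 0.159). Klf10 and Mlxipl in liver were named after their values were seen.

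FOXO factors and genes that insulin represses had 6 higher and 2 lower of 16 tested in liver, 4 and 1 of 13 in marrow and 6 and 4 of 13 in spleen. The median change was 0.60, 0.19 and 0.29. Cited2, a transcriptional coregulator, rose in all 3 tissues, by 1.86 ± 0.28, 0.66 ± 0.08 and 0.63 ± 0.11 (SE, limma adjusted p = 0.000116, 0.00242 and 0.00041). In liver Igfbp1, which binds insulin-like growth factors in plasma, rose by 2.93 ± 0.18 (SE, limma adjusted p = 1.09e-09). The insulin receptor substrate Irs1 fell in liver by 1.08 ± 0.14 and in spleen by 0.86 ± 0.14 (SE, limma adjusted p = 1.76e-05 and 0.000242).

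Irs2, the other substrate, rose in bone marrow by 0.50 ± 0.09 (SE, limma adjusted p = 0.0137), a call lost without vehicle replicate 2 or hypoxia replicate 2 (adjusted p up to 0.0518), and in spleen by 0.71 ± 0.09 (SE, limma adjusted p = 2.71e-05). It stood at 0.60 ± 0.19 in liver (SE, limma adjusted p = 0.0526, and 0.0409 with the replicate block). Klf15, a transcription factor of the fasting response, rose by 0.69 ± 0.05 in marrow and 1.62 ± 0.15 in spleen (SE, limma adjusted p = 0.000394 and 1.66e-06). In liver, where it was named after its value was seen, Klf15 rose by 0.40 ± 0.11 (SE, limma adjusted p = 0.0233). That liver call was lost without vehicle replicate 1 (adjusted p = 0.0506) and within either array set (adjusted p up to 0.119). In spleen Pdk4, the kinase that restrains pyruvate dehydrogenase, rose by 2.17 ± 0.18 and Sesn1 by 1.27 ± 0.15 (SE, limma adjusted p = 4.89e-07 and 2.48e-05). The spleen call of Sesn1 was lost within replicates 1 to 4 (adjusted p = 0.0504), as was the spleen call of Irs1 (adjusted p = 0.0871). In bone marrow, where it was named after its value was seen, Sesn1 rose by 0.54 ± 0.12 (SE, limma adjusted p = 0.0288). That marrow call was lost for 4 of 7 arrays left out (adjusted p up to 0.0832).

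The glucocorticoid receptor targets had 9 of 12 higher and 0 lower in liver, 10 of 11 higher and 1 lower in bone marrow, and 11 of 12 higher and 0 lower in spleen. Their median change was 1.76, 1.67 and 1.53, beside -0.03, -0.01 and -0.0083 over all genes. Which signal moved the genes of this list was not tested. Ddit4, an inhibitor of mTORC1 signalling, rose by 4.84 ± 0.21 in liver, 3.93 ± 0.09 in marrow and 2.11 ± 0.21 in spleen (SE, limma adjusted p up to 3.88e-06). Sgk1, a kinase that controls ion transport, rose by 2.23 ± 0.12, 0.88 ± 0.06 and 1.01 ± 0.10 in the same order (SE, limma adjusted p up to 0.00029). Per1, a component of the circadian clock, rose by 1.29 ± 0.19, 2.72 ± 0.14 and 1.62 ± 0.13 (SE, limma adjusted p up to 9.83e-05). Dusp1, a phosphatase of MAP kinases, rose by 3.01 ± 0.14 in liver, 2.39 ± 0.10 in marrow and 2.36 ± 0.12 in spleen (SE, limma adjusted p up to 2.93e-05). Cebpd, a C/EBP transcription factor, was the gene that fell in bone marrow, at -0.59 ± 0.09, named there after its value was seen, and rose in spleen by 1.62 ± 0.10 and in liver by 2.26 ± 0.14 (SE, limma adjusted p up to 0.00904). Klf9, a transcriptional repressor, rose in bone marrow by 1.82 ± 0.08 and in spleen by 1.19 ± 0.15 and stood at 0.14 ± 0.17 in liver (SE, limma adjusted p = 2.93e-05, 2.97e-05 and 0.691). Tsc22d3 and Zbtb16, named after their values were seen, were not called in liver either. They stood there at 0.14 ± 0.22 and 0.04 ± 0.17 (SE, limma adjusted p = 0.776 and 0.923).

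Other genes were ranked by how alike their values were to those of Arrdc3 over the 39 arrays, each array taken minus the vehicle mean of its tissue, among 11073 other genes that passed the filter in all tissues. The r describes these arrays, which share tissues and controls, and has no p. The most alike were Gnpda1 (r = 0.872), an enzyme of hexosamine breakdown, Bik (r = 0.868), Eif4ebp2 (r = 0.861), Osgin1 (r = 0.861) and Bmf (r = 0.858). Bik and Bmf are BH3-only promoters of apoptosis and Eif4ebp2 encodes a repressor of cap-dependent translation. Osgin1, an oxidative stress-induced gene, differed by -2.11 in liver, -0.11 in marrow and 0.33 in spleen. Bmf differed by -1.29, 0.99 and 0.49 in the same order. The signs of Arrdc3 in all 3 tissues were shared by Gnpda1, Bik, Eif4ebp2 and Bmf, but not its size in marrow and spleen. Gnpda1 differed by -0.86 in liver, 0.11 in marrow and 0.11 in spleen. Bik differed by -1.15, 0.07 and 0.17, and Eif4ebp2 by -0.28, 0.20 and 0.39. Arrdc3 itself stood at -2.88, 1.47 and 1.64.

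The genes most opposite to Arrdc3 were Nabp1 (r = -0.940), a single-stranded DNA-binding protein, Gadd45b (r = -0.930), a stress-response gene, and Slc38a2 (r = -0.926), an amino acid transporter. Nabp1 differed by 1.17 in liver, -0.90 in marrow and -0.90 in spleen. Gadd45b differed by 1.82, -0.33 and -0.70, and Slc38a2 by 1.84, -0.32 and -0.21. Within the family Arrdc2 had an r of -0.759 to Arrdc3, Arrdc4, by 1426818_at, -0.392 and Txnip -0.0076. The genes most alike to Txnip were Fkbp5 (r = 0.781), a co-chaperone of the glucocorticoid receptor, Cirbp (r = 0.774), a cold-inducible RNA-binding protein, and Dgke (r = 0.772), a diacylglycerol kinase. Fkbp5 differed by 1.29 in liver, 1.17 in marrow and 1.75 in spleen, and Cirbp by 1.04, 1.86 and 1.42.

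**Figure D5:**
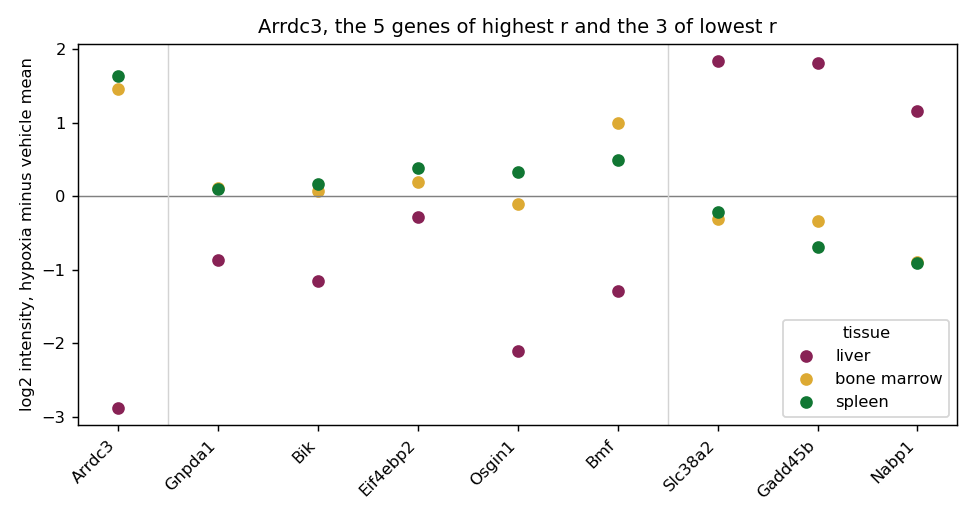
Hypoxia minus vehicle difference of log2 intensity in each tissue for Arrdc3, the 5 genes of highest r to it and the 3 of lowest r over 39 arrays. Each point is a tissue's difference of means. The genes of highest r lie below 0 in liver, and the genes of lowest r lie above 0 in liver and below 0 in marrow and spleen.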

How the data were processed

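Each of the 39 samples was hybridised to 1 Affymetrix array. The authors deposited linear intensity values per probe set. RMA and limma are named in the submitters' processing notes, without versions. The values were converted to log2 without an offset. After 64 control probe sets of 45101 were left out, the platform annotation named 34945 by 1 symbol, and only these were used. Array medians (log2) ran from 5.21 to 5.33 for liver, 6.22 to 6.29 for marrow and 6.16 to 6.20 for spleen, so each tissue was fitted alone. The probe set of highest mean stood for a gene, genes below the 30th percentile were left out, and 12735 genes per tissue were tested for hypoxia minus vehicle (two-sided) with lmFit and eBayes of limma 3.58.1 in R 4.3.3, with Benjamini-Hochberg adjustment and calls at 0.05. No array duplicated another, and the number of arrays limits the precision. On simulated data, log2 changes of 1 between hypoxia and vehicle were recovered for 98% of genes in the liver design, 98% in the marrow design and 92% in the spleen design. For the interaction of array set with treatment, 73% were recovered in liver and 77% in spleen.

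The members and gene lists were chosen with earlier results of these data known. All 7 genes are named in every tissue, with up to 3 called genes of smallest p per list and tissue, the 5 genes most and the 3 least like Arrdc3 over the arrays, and the 3 most like Txnip; genes outside this rule are marked as named after their values were seen. Exact permutation tests were computed with numpy 2.4.6, with ranks from scipy 1.17.1. Same-numbered liver arrays deviated together (r from 0.166 to 0.535), but they also share an array set, whose means were not removed. Of 8 vehicle livers, 2 correlated best with the hypoxia array of their own number. Pairs are thus not shown for liver, and fits with the number as a block are given only as an alternative. With the replicate block 2385 liver genes were called instead of 1413. In marrow the same-number r ran from -0.027 to 0.322, and 2 of 3 vehicle arrays correlated best with their own number. So few pairs neither show nor exclude pairing in marrow. In spleen the same-number r ran from -0.478 to 0.313, and 1 of 8 vehicle arrays correlated best with its own number, so pairs are not shown there. Protein sequences were not used here.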

Additional observations from a re-analysis of the deposited data

Results flagged for a closer look

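Arrdc3 lay lower under hypoxia in liver, at -2.88, and higher in bone marrow and spleen, at 1.47 and 1.64, with every hypoxia array beyond every vehicle array of its tissue. The opposite directions were what the gene family was picked on, and the difference between tissues was not tested.

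Among 60 groups of 4 to 8 arrays, 3 had 1 array far from the others by Dixon's criterion, which chance meets in about 1 of 20 groups. Arrb1 stood at 11.34 in hypoxia spleen replicate 4, against 10.42 in the next array. The spleen difference of Arrb1, 0.31 over all arrays, was 0.16 without that array, 0.48 without vehicle replicate 2, 0.02 within replicates 1 to 4 and 0.61 within replicates 5 to 8. The Arrdc4 probe set 1426818_at stood at 6.13 in hypoxia liver replicate 3, against 5.37 in the next array. The Arrb2 probe set 1426239_s_at stood at 10.44 in hypoxia spleen replicate 3, against 10.18 in the next.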

How the results depend on the processing

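The 21 member differences (7 genes in 3 tissues) gave 420 values under other processing or with 1 array left out. Of these, 413 moved by less than 1 SD between arrays, 6 moved by more and 1 reversed. Many could hardly move. Leaving out 1 array shifts a mean little, and the replicate block and set term return the same estimates in liver and spleen. Settings on probe sets repeat the value of a gene with 1 probe set. The count of 413 is thus not a measure of robustness. With the mean of its probe sets Arrdc4 turned to 0.0718 in bone marrow and stood at -0.11 in spleen; these follow from averaging probe sets of opposite direction. Arrdc1 moved to 0.0211 in bone marrow under the same setting. In liver Arrdc4, by 1424759_at, stood at 0.47 within replicates 1 to 4 and at -0.083 within 5 to 8. In spleen, by 1426818_at, it stood at -0.43 and -0.96 in the same order. The cause was not tested. Arrdc3 kept its direction in each tissue under every alternative run. The sign changed in 12 of the 420 values, within 7 differences.

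The replicate block, on the numbers in the labels, gave 2385 called genes in liver against 1413, the array set as a term 2668, replicates 1 to 4 alone 759 and 5 to 8 alone 1919. Linked liver genes numbered 35 with the block against 25. Replicates 1 to 4 alone gave 461 called genes in spleen and 5 to 8 alone 3316, against 2469, and 16 and 36 linked genes against 30; the cause was not tested. Leaving out 1 marrow array gave 409 to 909 called genes against 979, with 446 without vehicle replicate 2, 651 without vehicle replicate 3, 409 without hypoxia replicate 2 and 475 without hypoxia replicate 3. The block moved no other count over all genes or all linked genes by more than 1.5 times.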
